A study of Homo sapiens with 6 samples.

Results

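The UGT2B cluster is a run of UDP-glucuronosyltransferase genes on chromosome 4q13, and its contacts were read from Hi-C maps of LNCaP cells, an established androgen-responsive human prostate cancer line. The cluster was taken as the 40 kb bins from the first to the last bin that overlaps 1 of 7 genes, UGT2B17, UGT2B15, UGT2B10, UGT2B7, UGT2B11, UGT2B28 and UGT2B4, on the hg19 build (GRCh37). This gave 25 bins, chr4:69400001-70400000, of the 64943 bins with a contact in the whole series, and 14 of the 25 overlap a member gene. The bins follow from gene position and not from a measured value, although the genes and tests were chosen with earlier results of these data known. The 28 bins upstream (lower coordinates) and the 25 bins downstream, within chr4:68280001-71400000, served as flanks.

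Both groups were LNCaP cells that received 20 nM of an siRNA pool, were split after the first transfection and were reverse transfected, with collection at 144 h. In the control siRNA group (2 libraries) the pool was non-targeting, and in the CTCF siRNA group (4 libraries) it was directed against CTCF. The 4 CTCF siRNA libraries have different replicate labels, 2 whole numbers given once as such and once with a decimal suffix. The labels do not say whether a number and its suffixed form come from separate cultures. Chromatin was cut with BglII before ligation in every library. The authors pooled the libraries of each group, so there was 1 map and 1 list of topologically associating domains (TADs) per condition, with no replicate spread and no p-value. All intervals below are 95% intervals that cover counting error only. The maps measure contacts, so neither the level of CTCF nor that of any UGT2B RNA was checked here.

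UGT2B enzymes sit in the endoplasmic reticulum and join glucuronic acid to small lipophilic molecules, which makes these soluble and ready for excretion. In prostate cells, glucuronidation by UGT2B17, UGT2B15 and UGT2B28 is a main route by which dihydrotestosterone and its metabolites are inactivated. CTCF is a zinc-finger protein that binds DNA and, with cohesin, marks the edges of many TADs, the stretches of a chromosome whose parts contact each other more often than they contact the neighbouring stretch.

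The genes are close copies of each other, and the start of each coding sequence is shown because reads from such copies are hard to place. The 60 bases below were read from GRCh37 with GENCODE 44 (lifted to this build), each from the start codon within the first coding exon and on the gene's own strand. Capitals mark bases that differ from UGT2B17 in the alignment of the whole coding sequences.
UGT2B17 (chr4:69434143-69434202, minus strand): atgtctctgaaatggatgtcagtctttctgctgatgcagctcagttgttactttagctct
UGT2B15 (chr4:69536277-69536336, minus strand): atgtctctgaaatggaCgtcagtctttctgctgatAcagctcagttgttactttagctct
UGT2B10 (chr4:69681738-69681797, plus strand): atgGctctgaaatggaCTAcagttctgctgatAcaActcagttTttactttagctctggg
UGT2B7 (chr4:69962239-69962298, plus strand): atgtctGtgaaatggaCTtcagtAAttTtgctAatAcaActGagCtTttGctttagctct
UGT2B11 (chr4:70080381-70080440, minus strand): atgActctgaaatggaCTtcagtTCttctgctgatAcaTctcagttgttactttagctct
UGT2B28 (chr4:70146219-70146278, plus strand): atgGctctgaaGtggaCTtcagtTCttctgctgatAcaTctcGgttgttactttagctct
UGT2B4 (chr4:70361520-70361579, minus strand): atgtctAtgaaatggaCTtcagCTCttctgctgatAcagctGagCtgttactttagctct
In this stretch UGT2B15 differed from UGT2B17 at 2 bases and UGT2B7 at 13, and UGT2B10 differed at 7 bases and lacked 3 bases that UGT2B17 has. Over the whole coding sequence UGT2B17 and UGT2B15 were identical at 96.5% of aligned positions, and UGT2B11 and UGT2B28 at 97.0%. The least alike pair, UGT2B15 and UGT2B28, was identical at 83.9%.

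The core of the CTCF motif was searched on both strands of chromosome 4, and the matches nearest the cluster are shown because CTCF, the protein whose RNA the siRNA pool targets, binds such motifs. Capitals mark the core and 19 bases are given on each side, read on the strand named.
Match in the gap between the control TADs (chr4:69027869-69027918, plus strand): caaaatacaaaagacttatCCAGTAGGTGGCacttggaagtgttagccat
Match in the same gap (chr4:69041439-69041488, minus strand): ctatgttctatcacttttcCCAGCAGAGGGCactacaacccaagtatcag
Nearest match upstream of the cluster (chr4:69241327-69241376, plus strand): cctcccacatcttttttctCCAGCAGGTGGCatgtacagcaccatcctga
Match inside the cluster (chr4:69770591-69770640, plus strand): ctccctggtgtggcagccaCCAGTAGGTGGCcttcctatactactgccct
The region held 8 such matches, of which 7 lay in the upstream flank and 1 in the cluster, within the span of an annotated long non-coding RNA gene without a symbol, in the bin that also overlaps the end of UGT2A3. Of the usable bins of chromosome 4 used here, 9.68% held a match. A match of letters is a description and not a measured binding site, and CTCF binding was not analysed here.

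Depth differed between the conditions. The part of chromosome 4 used for the expected contacts ran from 48120001 to its end, with 3481 usable bins. Medians, shares and other positions of chromosome 4 given below refer to this part, apart from the TAD lists. On it the control siRNA map held 505404 contacts between different bins and the CTCF siRNA map 1396283, which is 2.76 times as many. The median usable bin had 284 contacts with other bins of this stretch in the control siRNA map and 731 in the CTCF siRNA map. On the whole of chromosome 4 the authors' lists held 173 TADs with a median length of 800 kb in control siRNA and 112 with a median length of 1040 kb in CTCF siRNA. The part of depth in the TAD calls was not tested.

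All 25 bins of the cluster were usable in both maps, that is, had at least 10% of the chromosome's median contacts. Coverage was nevertheless low over several genes. Relative to the median bin of chromosome 4, contacts per bin in the cluster ran from 0.31 to 1.58 (median 0.70) in control siRNA and from 0.29 to 1.77 (median 0.74) in CTCF siRNA, against medians of 1.22 and 1.15 in the upstream flank and 1.28 and 1.02 in the downstream flank. The bins of UGT2B17 were among the lowest, with a mean of 0.31 in control siRNA and 0.40 in CTCF siRNA. UGT2B10, an enzyme that glucuronidates tertiary amines, had 0.48 and 0.34. UGT2B4, an enzyme with bile acids among its substrates, was the best covered at 0.98 and 1.09. The remaining members, UGT2B15, UGT2B7, UGT2B11 and UGT2B28, lay between 0.57 and 0.82 in control siRNA.

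Repeated sequence was more frequent in the cluster than in its flanks. Exact 50-base words that occur again in the region made up 10.1% of the cluster and 2.36% of the flanks on average. They made up 24.4% of the UGT2B11 bins, 22.7% of the UGT2B28 bins, 13.1% of the UGT2B15 bins and 10.1% of the UGT2B17 bins, but 2.75% of the UGT2B7 bins and 0.43% of the UGT2B4 bins. The first UGT2B4 bin had a coverage of 0.39 in control siRNA and 0.41 in CTCF siRNA with 0.45% repeated words and 3 BglII sites, and the UGT2B10 bin had 5 BglII sites. The median GC content was 35.6% in the cluster bins and 37.0% on chromosome 4, and the median number of BglII sites a bin was 10 against 11. The parts of repeated sequence and of restriction sites in the coverage were not tested.

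**Figure D1:**
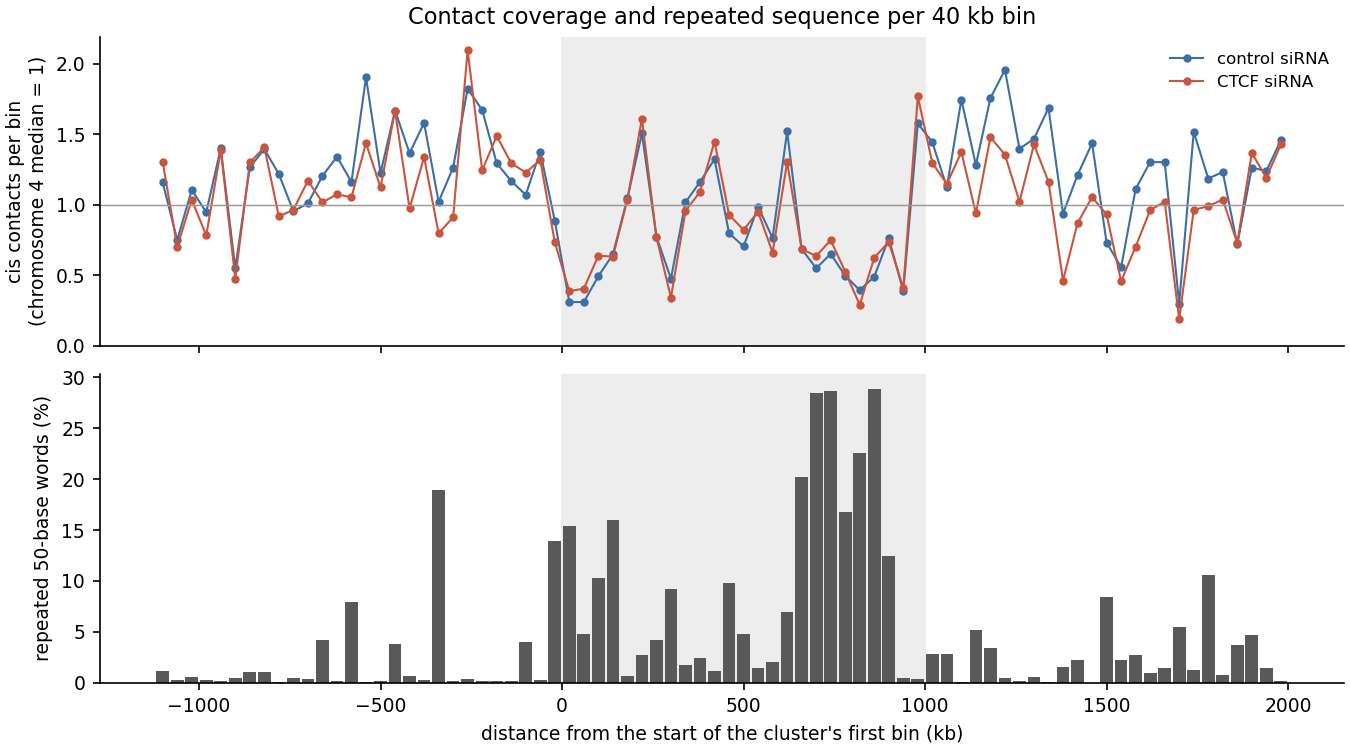
Contacts of each 40 kb bin relative to the chromosome 4 median (top, control siRNA in blue and CTCF siRNA in red) and the share of repeated 50-base words (bottom, percent) against distance from the cluster's first bin in kb. Shading marks the cluster, where the median is 0.70 in control siRNA and 0.74 in CTCF siRNA and where repeated words average 10.1%.

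The share of a bin's contacts that stayed on the part of chromosome 4 used here was low in the cluster as well. Chromosome 4 partners below 48120001 and contacts inside a bin were left out of it. Counted over partners with unscaled values, it was 45.2% in control siRNA and 46.2% in CTCF siRNA, against medians of 52.6% and 53.3% over 132 other stretches of 25 bins tiled along the chromosome, none of which holds a bin of the cluster in itself or in its flanks. Of these, 0 were lower in control siRNA and 2 were lower in CTCF siRNA. UGT2B10 had the lowest share of the members, 35.8% and 34.0%, and UGT2B11 the highest, 50.1% and 48.5%.

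The first question was where the cluster lies relative to the TADs. In control siRNA all 7 genes lay in 1 TAD of 1400 kb, chr4:69100001-70500000, together with YTHDC1, a nuclear reader of methylated adenosine, TMPRSS11E, a membrane serine protease, and UGT2A3, a related transferase that lies between UGT2B10 and UGT2B7. The gene edge of the cluster was 303 kb from the upstream TAD edge and 108 kb from the downstream TAD edge, so the cluster filled the downstream part of its TAD without reaching either edge. The downstream edge cut through UGT2A1 and UGT2A2, which share most of their span. Beyond it lay a TAD of 240 kb with SULT1B1 and SULT1E1, sulfotransferases of thyroid hormone and of estrogen, and then a TAD of 680 kb.

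In CTCF siRNA all 7 genes again lay in 1 TAD, now of 2200 kb, chr4:69140001-71340000. It also held UGT2A1, UGT2A2, SULT1B1 and SULT1E1 whole. The upstream edge was 263 kb from UGT2B17, a shift of 1 bin from control siRNA. The downstream edge was 948 kb from UGT2B4, in place of 108 kb. No TAD edge of either list fell between 2 members, so neither list separated the genes.

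The TAD lists were made from the same maps as the contact values, so the contacts across the absent edge are not independent of the call. The insulation value describes them bin by bin. For each bin, contacts that jump over it were set against their expected number, the same was done for contacts within the 400 kb on either side, and the log2 of the first level over the other was taken, so that a low value marks a boundary. Expected contacts come from the distance between bins and a coverage factor for each bin, fitted to each map.

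The bin that holds the downstream edge of the control TAD, within UGT2A1 and UGT2A2, had an insulation value of -1.17 (counting SD 0.12) in control siRNA and 0.0026 (counting SD 0.061) in CTCF siRNA. In control siRNA 161 contacts crossed it where 333 were expected, and in CTCF siRNA 776 crossed it where 795 were expected. The value rose by 1.17 (counting SD 0.14). On the upstream side, the bin that holds the control TAD edge, at 69080001, had -0.83 (counting SD 0.10) in control siRNA and -0.31 (counting SD 0.056) in CTCF siRNA, so that its value rose by 0.52 (counting SD 0.11). The next bin, at 69120001, which holds the CTCF siRNA edge, had -0.87 (counting SD 0.11) and -0.85 (counting SD 0.069). The difference there, 0.011, was smaller than its counting SD of 0.13. The bin after it, at 69160001, was the lowest of this dip in CTCF siRNA, with -0.60 (counting SD 0.10) in control siRNA and -0.90 (counting SD 0.066) in CTCF siRNA. The downstream edge of the CTCF siRNA TAD lies in the bin at 71320001, which had -0.076 (counting SD 0.093) in control siRNA and -0.21 (counting SD 0.059) in CTCF siRNA. The bin after it, at 71360001, had -0.62 (counting SD 0.10) and -0.41 (counting SD 0.060), so both profiles were low there as well.

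**Figure D2:**
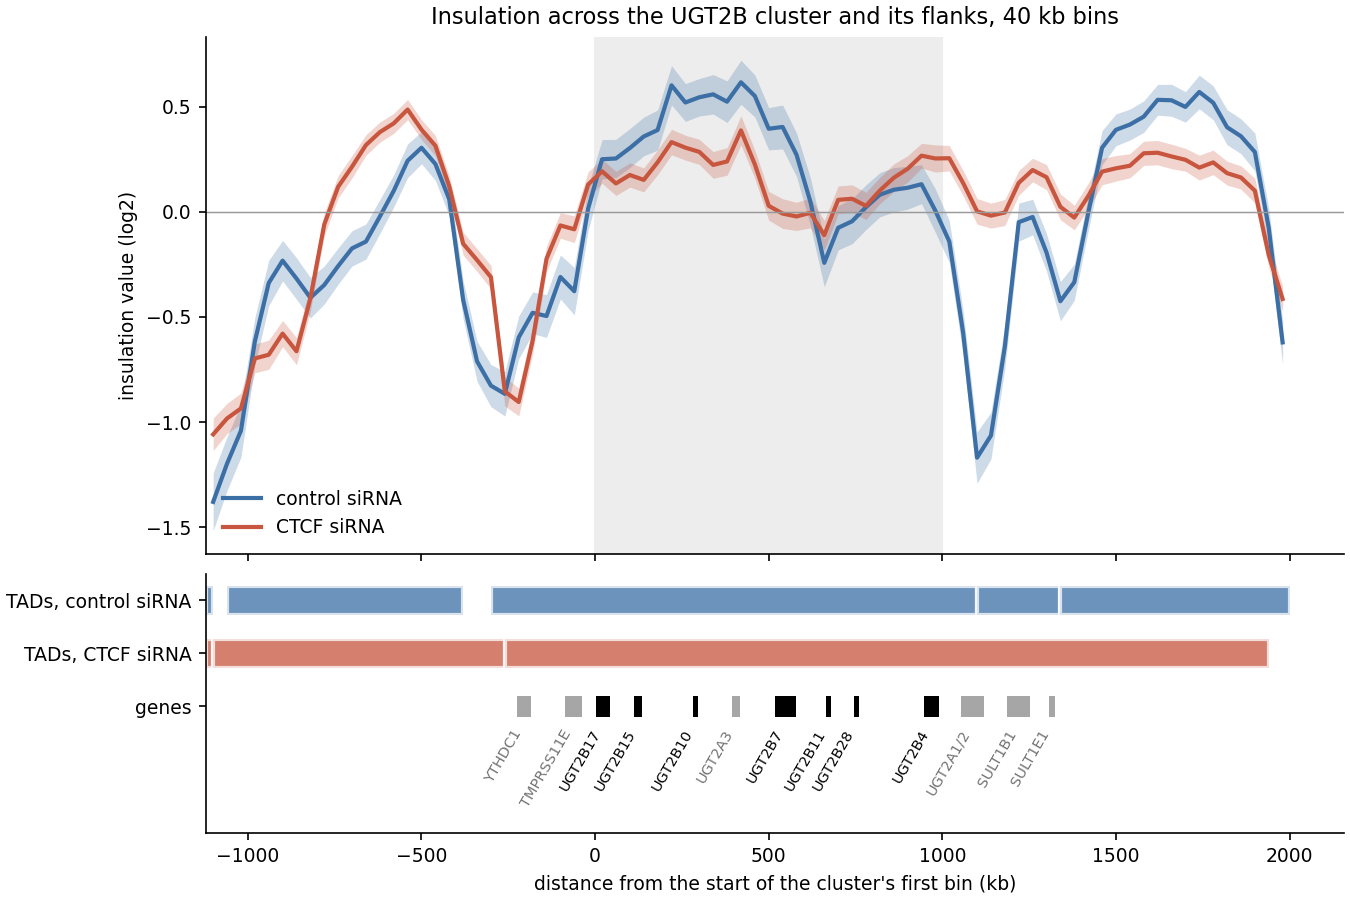
Insulation value (log2) of each 40 kb bin in control siRNA (blue) and CTCF siRNA (red), with a band of 1 counting SD, against distance from the cluster's first bin in kb; below are the TADs of both lists and the genes, members in black. Shading marks the cluster; the dip just downstream of it, -1.17 in control siRNA, is absent from the red curve, both curves are low at the right end, and the upstream dip is present in both, narrower in red.

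Within the cluster the profile was not flat. In control siRNA the mean over the 25 bins was 0.27, and in CTCF siRNA 0.16. Both exceed the chromosome 4 medians of 0.045 and 0.057. The highest control values lay between UGT2B15, which glucuronidates dihydrotestosterone, and UGT2B7, which acts on morphine and many other drugs. The 3 bins between UGT2B15 and UGT2B10 averaged 0.50 in control siRNA and 0.29 in CTCF siRNA. The 4 bins between UGT2B10 and UGT2B7 averaged 0.56 and 0.27. The values then dropped to -0.24 in control siRNA and -0.11 in CTCF siRNA at the bin that starts at 70040001, the first of UGT2B11, which was the lowest of the cluster in both maps.

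The change after CTCF siRNA was read for each gap between neighbouring genes. The value fell by 0.21 (interval -0.40 to -0.021 for the change) between UGT2B15 and UGT2B10, and it fell by 0.29 (interval -0.49 to -0.095) between UGT2B10 and UGT2B7. Between UGT2B17 and UGT2B15 the change was -0.12 (-0.33 to 0.083). Downstream of UGT2B7 the changes were -0.053 (-0.32 to 0.21) up to UGT2B11, 0.12 (-0.12 to 0.36) between UGT2B11 and UGT2B28, and 0.056 (-0.17 to 0.28) between UGT2B28 and UGT2B4. The intervals of these 4 gaps include 0. These calls rest on the flank length. With flanks of 200 kb in place of 400 kb, the changes were -0.16 (-0.50 to 0.18) between UGT2B15 and UGT2B10 and -0.041 (-0.30 to 0.22) between UGT2B10 and UGT2B7, so both calls were lost, while the value between UGT2B11 and UGT2B28 rose by 0.82 (0.30 to 1.34). With flanks of 800 kb, the 4 gaps from UGT2B17 to UGT2B11 fell, by 0.58 between UGT2B10 and UGT2B7, and the gap between UGT2B28 and UGT2B4 rose by 0.26 (0.11 to 0.42). At 800 kb the windows of all bins between UGT2B10 and UGT2B7 reach past the downstream control TAD edge. Between UGT2B28 and UGT2B4 they do so at 400 kb too. Those values therefore include contacts across that edge and do not describe separation of the genes alone. Without contacts between neighbouring bins, the change between UGT2B15 and UGT2B10 was still -0.21, but its interval, -0.43 to 0.0033, included 0.

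Over all 25 bins the mean change was -0.11 (interval -0.22 to 0.0017), which includes 0, while the median change over chromosome 4 was near 0 (-0.00033). By bin, 9 of 25 fell and 1 of 25 rose with a 95% counting interval that leaves out 0. Of the 3453 bins of chromosome 4 with a value, 24.1% fell and 28.8% rose. At this flank length the cluster thus had more falling and fewer rising bins than the background share, in bins that share contacts with their neighbours. The 9 bins lay between 69600001 and 70000000 and included the UGT2B10 bin and all 3 bins of UGT2B7, where the 3 values were 0.40, 0.40 and 0.27 in control siRNA and 0.029, -0.0081 and -0.022 in CTCF siRNA. The bin that rose was the second of UGT2B4, from 0.0051 to 0.25. It adjoins the bins at 70400001, 70440001 and 70480001, which rose by 0.40, 0.71 and 1.17. The last of these holds the downstream control TAD edge, and the window of the UGT2B4 bin spans that edge. The call of the UGT2B4 bin rests on the setting. Without contacts between neighbouring bins its change was 0.20 (-0.060 to 0.46), and 7 bins fell and 0 rose. With flanks of 200 kb this bin fell by 0.51. It rose by 0.40 with distance alone as the expectation and by 0.26 with an expectation from bins within 10 Mb. The rise was 0.38 with bins of at least 50% of the median contacts and 0.48 with flanks of 800 kb. With flanks of 200 kb in place of 400 kb, 4 of the 25 bins fell and 3 rose, against 16% and 19.7% of chromosome 4 bins, so the share that fell was at the background. With flanks of 800 kb, 16 fell and 6 rose, against 28% and 36.7%, and the mean change was -0.18.

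The next comparison concerned contacts among the cluster's own bins. In control siRNA 1220 contacts were observed, 1.08 times the expected number (interval 1.02 to 1.14). In CTCF siRNA 3027 were observed, 0.98 times expected (0.94 to 1.01). The change was -0.14 on the log2 scale (-0.24 to -0.046). Over the 132 other stretches of the same length the median change was -0.028, and 8 of them had a lower change. The level against 1 depends on the coverage factor, because with distance alone as the expectation it was 0.71 in control siRNA and 0.62 in CTCF siRNA. Restricted to the bins that overlap a member gene, the change was -0.10 with an interval, -0.32 to 0.12, that includes 0.

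Of the 4 distance classes within the cluster, 1 had a change whose interval left out 0, that of contacts 280 to 480 kb apart. The share of other stretches called in the same class is not given, so this count has no background. Their level was 1.37 (1.21 to 1.54) in control siRNA and 1.04 (0.96 to 1.12) in CTCF siRNA, a change of -0.40 (-0.61 to -0.19). At 40 to 80 kb the levels were 1.03 and 0.97, and at 120 to 240 kb they were 0.94 and 0.92, with changes whose intervals include 0. At 520 to 960 kb the levels were 1.28 and 1.09, from 96 and 260 contacts, and the interval of the change, -0.58 to 0.12, includes 0 too.

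Single gene pairs were read from few contacts. The 21 pairs of members had between 1 and 22 contacts in control siRNA and between 3 and 74 in CTCF siRNA. Their median level was 1.24 in control siRNA and 1.07 in CTCF siRNA, against 0.93 and 0.96 for the same arrangement of bins placed at 134 other positions of chromosome 4. The median change over the pairs was -0.28, against 0.045 at the other positions. Of 21 pairs, 1 rose and 1 fell, where at the other positions 4.58% of pairs rose and 6.01% fell, and 3.16% of single bin pairs at the same distances changed in either direction. These counts are near the background.

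The pair that fell was UGT2B15 and UGT2B11, both read on the minus strand. It had 10 contacts in control siRNA, 3.22 times expected (1.55 to 5.93), and 11 in CTCF siRNA, 1.03 times expected (0.51 to 1.84). The change was -1.65 (-3.02 to -0.25). The levels depend on the coverage factor, because with distance alone as the expectation they were 1.19 and 0.44, with a change of -1.45 (-2.82 to -0.056). With bins of at least 50% of the median contacts this pair had 6 and 7 contacts, and the interval of its change, -3.05 to 0.60, included 0. The pair that rose was UGT2B7 and UGT2B28. It had 4 contacts in control siRNA, 0.28 times expected (0.076 to 0.72), and 47 in CTCF siRNA, 1.15 times expected (0.85 to 1.53). With distance alone its levels were 0.14 and 0.56, both below 1, with a change of 2.04 (0.59 to 3.97). With bins of at least 50% of the median contacts it had 4 and 35 contacts from 3 bin pairs. Its change was then 1.49 (0.0013 to 3.44), so the interval barely left out 0. With the coverage factor in the expectation, UGT2B15 and UGT2B7 stood above it in both maps. They had 20 contacts and a level of 2.45 (1.49 to 3.78) in control siRNA and 43 contacts and 1.69 (1.22 to 2.27) in CTCF siRNA. The neighbours with the most alike coding sequences were near expectation. UGT2B17 and UGT2B15 had 1.24 (0.64 to 2.16) and 1.23 (0.90 to 1.63), and UGT2B11 and UGT2B28 had 1.02 (0.62 to 1.57) and 1.20 (0.94 to 1.50).

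Taken whole, contacts of the cluster with its 2 flanks changed in opposite directions. Each flank holds bins inside the control TAD and bins beyond it, so these totals mix both kinds. With the downstream flank it made 729 contacts in control siRNA, 0.87 times expected (0.81 to 0.93), and 2463 in CTCF siRNA, 1.15 times expected (1.11 to 1.20). This rise was 0.41 on the log2 scale (0.29 to 0.53), and 13 of the 132 other stretches had a higher change with their downstream flank. With the upstream flank it made 951 contacts, 1.22 times expected (1.14 to 1.30), and 2402 contacts, 1.09 times expected (1.04 to 1.13). The change was -0.16 (-0.27 to -0.052), and 27 of the 132 other stretches had a lower change with their upstream flank. With distance alone as the expectation the levels were 1.07 and 0.90, below 1 in CTCF siRNA, and the change was -0.25 (-0.36 to -0.14). The downstream change on that expectation was 0.17 (0.049 to 0.29), and the coverage of the downstream flank relative to the chromosome, 1.28 in control siRNA, was 1.02 in CTCF siRNA. The part of that coverage in the result was not tested.

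The contacts were also read against the 2 TADs beyond the control edge. Their bins are part of the downstream flank, and the edge was called from these same maps. A larger rise there than over the flank is therefore a description and not a separate comparison. With the 240 kb TAD of SULT1B1 and SULT1E1 the cluster made 149 contacts in control siRNA, 0.59 times expected (0.50 to 0.69), and 708 in CTCF siRNA, 1.09 times expected (1.01 to 1.17), a change of 0.88 (0.62 to 1.14). With the TAD after it the level went from 0.68 (0.59 to 0.79) to 1.31 (1.23 to 1.40), a change of 0.95 (0.72 to 1.18). With distance alone as the expectation the 2 changes were 0.67 (0.41 to 0.93) and 0.68 (0.45 to 0.91). Between those 2 TADs, which lie outside the cluster, the levels were 1.09 and 1.12, and the interval of the change, -0.14 to 0.23, includes 0. On the upstream side, the level of the cluster with the preceding control TAD was 0.80 (0.70 to 0.91) and 0.96 (0.90 to 1.03), a change of 0.28 (0.061 to 0.49) that with distance alone was 0.13 and no longer left out 0. For the whole control TAD that holds the cluster, contacts with the preceding TAD rose by 0.43 (0.28 to 0.57). Contacts within that holding TAD changed by -0.20 (-0.26 to -0.13). Contacts of the cluster thus rose beyond both control edges, less so upstream.

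Contacts that pass over the cluster were high in control siRNA. The upstream flank made 637 contacts with the downstream flank, 2.15 times expected (1.99 to 2.32), and in CTCF siRNA 995, 1.48 times expected (1.39 to 1.57). The change was -0.54 (-0.68 to -0.39), and with distance alone as the expectation it was -0.87 (-1.02 to -0.73). With the coverage factor in the expectation, both flanks thus contacted each other above it in both maps, at a higher level than either contacted the cluster. Contacts between the flanks of other stretches were not set beside these values, so they have no background.

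**Figure D3:**
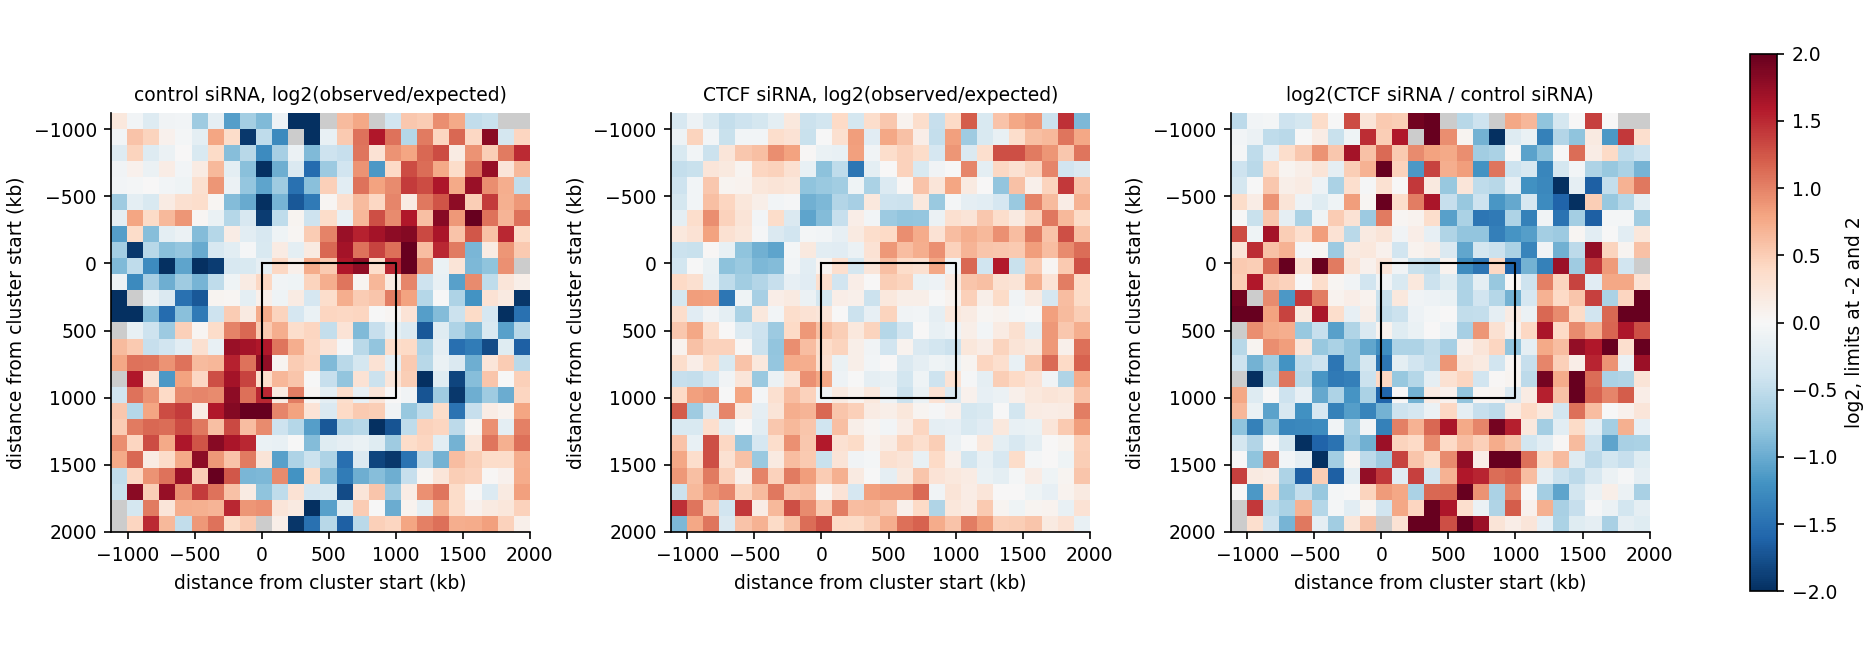
Log2 of observed over expected contacts in tiles of 120 by 120 kb in control siRNA (left) and CTCF siRNA (middle), and the log2 ratio of the conditions (right), with distance from the cluster start in kb on both axes and grey where a map had no contact. The square marks the cluster; tiles between the cluster and the stretch beyond the control TAD edge are mostly blue on the left and red on the right, and tiles between the 2 flanks are mostly red on the left.

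Gene by gene, control levels with the upstream flank differed along the cluster. With the upstream flank, UGT2B17 and UGT2B15, the members nearest to it, had levels of 0.65 (0.47 to 0.88) and 0.86 (0.68 to 1.08) in control siRNA, and UGT2B10 had 0.95 (0.59 to 1.43). The levels were 1.55 (1.28 to 1.86) for UGT2B7, 2.11 (1.63 to 2.69) for UGT2B11, 2.46 (1.90 to 3.13) for UGT2B28 and 2.28 (1.79 to 2.87) for UGT2B4. The intervals of the first 3 and of the last 3 genes do not overlap, while neighbours within each set overlap. No share of such a split at other positions of chromosome 4 is given, so it is a description and not a trait of these genes. These levels include the coverage factor, and that of UGT2B17 rests on 42 contacts in bins with a mean coverage of 0.31. In CTCF siRNA the range was narrower, from 0.89 for UGT2B17 to 1.42 for UGT2B28.

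Of the 7 members, 3 fell in their contacts with the upstream flank and 0 rose, where at other positions 13.1% of genes of this layout fell and 19.6% rose. The 3 were UGT2B11 at -0.61 (-1.05 to -0.16), UGT2B28 at -0.79 (-1.24 to -0.33) and UGT2B4 at -0.81 (-1.23 to -0.38). These members are neighbours that share 1 stretch of the flank, so they are not separate observations. UGT2B17 had a change of 0.46 with an interval, -0.033 to 0.97, that includes 0. With distance alone as the expectation UGT2B17 rose by 0.63 (0.14 to 1.15), and UGT2B7 fell as well, with a change of -0.35 (-0.67 to -0.027).

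With the downstream flank, 2 of the 7 rose and 0 fell, against 21.1% and 11.4% at other positions. These counts are near the background. UGT2B7 made 47 contacts with this flank in control siRNA, 0.56 times expected (0.41 to 0.75), and 247 in CTCF siRNA, 1.18 times expected (1.04 to 1.34), a rise of 1.07 (0.62 to 1.55). UGT2B4, the member nearest to the flank, made 170 and 582 contacts, at levels of 0.78 (0.67 to 0.90) and 0.98 (0.90 to 1.07), a rise of 0.34 (0.087 to 0.59). With distance alone as the expectation that rise was 0.24 and its interval included 0. UGT2B11 and UGT2B28, which lie between them, had changes of 0.26 (-0.16 to 0.71) and 0.36 (-0.051 to 0.78). UGT2B17, UGT2B15 and UGT2B10 had 18, 26 and 17 contacts with this flank in control siRNA, and the intervals of their changes include both 0 and the size seen in UGT2B4. With distance alone UGT2B10 fell with this flank, with a change of -1.39 and an upper bound of -0.37.

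With the rest of the cluster, 1 of the 7 members fell and 0 rose, against 13.3% and 8.98% at other positions, so the count is near the background. The member that fell was UGT2B15, which had 144 contacts in control siRNA, 1.40 times expected (1.18 to 1.65), and 318 in CTCF siRNA, 1.03 times expected (0.92 to 1.14), a change of -0.45 (-0.74 to -0.15). The other 6 members had levels from 0.92 to 1.19 in control siRNA and from 0.82 to 1.03 in CTCF siRNA. The lowest was UGT2B10 in CTCF siRNA, from 99 contacts. Its change was -0.21 (-0.68 to 0.28), and with distance alone it fell too, with a change of -0.81 (-1.28 to -0.32).

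**Figure D4:**
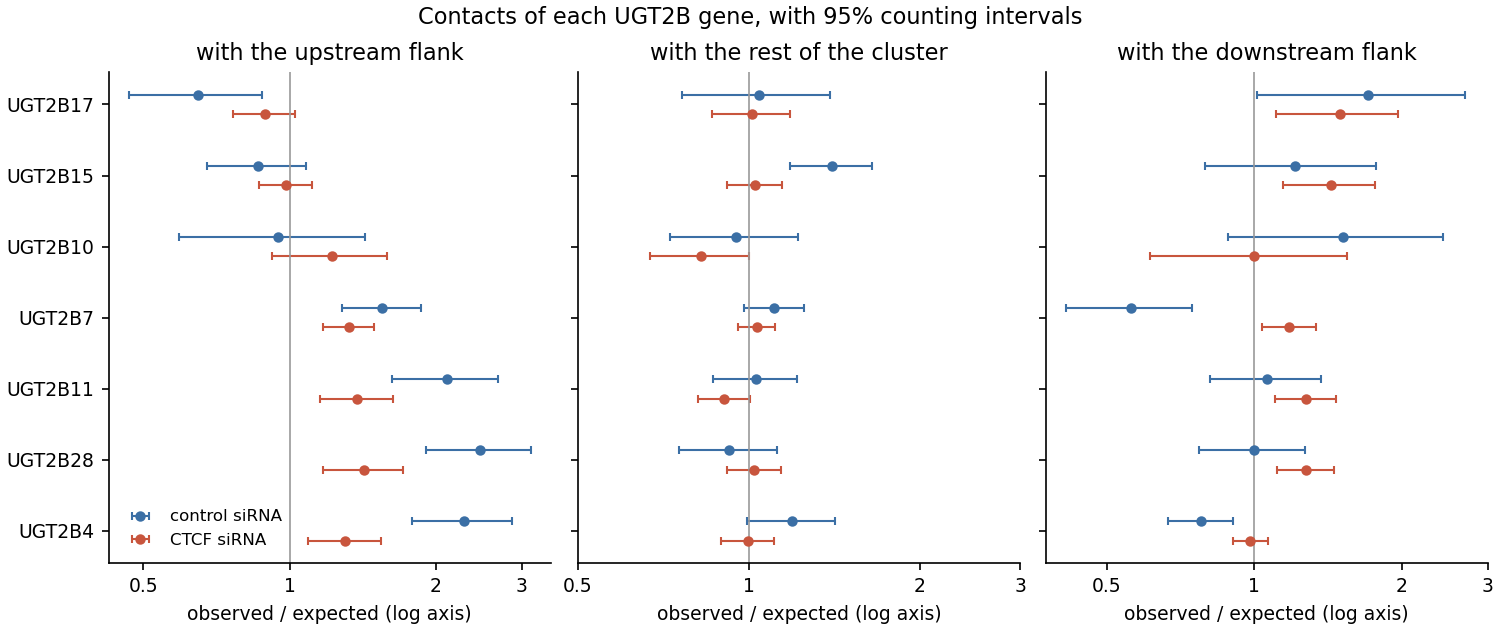
Observed over expected contacts (log axis) of each member gene with the upstream flank, the rest of the cluster and the downstream flank, in control siRNA (blue) and CTCF siRNA (red), with 95% counting intervals. With the upstream flank the members run from 0.65 (UGT2B17) to 2.46 (UGT2B28) in control siRNA, and with the downstream flank UGT2B7 goes from 0.56 to 1.18.

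The genes around the cluster were read against it in the same way. SULT1B1, beyond the control edge, had 78 contacts with the cluster in control siRNA, 0.48 times expected (0.38 to 0.59), and 420 in CTCF siRNA, 1.04 times expected (0.94 to 1.14), a rise of 1.13 (0.78 to 1.49). SULT1E1 had 0.84 (0.65 to 1.06) and 1.25 (1.11 to 1.41), a rise of 0.59 (0.20 to 0.99). The bins of SULT1B1 and SULT1E1 make up most of the 240 kb TAD read above. Their rises mostly repeat its contacts and are not a separate comparison. UGT2A1 and UGT2A2 occupy the same 2 bins at the edge itself, and their level with the cluster fell from 1.46 (1.28 to 1.66) to 1.12 (1.02 to 1.23). On the upstream side TMPRSS11E fell from 1.62 (1.44 to 1.82) to 1.22 (1.12 to 1.32), and YTHDC1 had 1.63 (1.39 to 1.90) and 1.37 (1.24 to 1.52), with a change of -0.24 whose interval, -0.51 to 0.029, includes 0. UGT2A3, which lies inside the cluster, had 1.09 (0.97 to 1.23) and 1.01 (0.94 to 1.09).

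With 1 map a condition, these differences are between 2 pools of libraries. Differences between cultures, library depth, coverage by GC content and the knockdown cannot be told apart.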

How the data were processed

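Hi-C libraries of LNCaP cells, 2 control siRNA and 4 CTCF siRNA, were mapped to hg19 and pooled by condition by the authors. According to the submitters' processing notes, FastQC 0.11.2, Bowtie 1.1.0, SAMtools 1.2 and Picard 1.121 were used, and the methods name HiCUP, HiCorrector and a directionality index domain caller for TADs. The deposited contact files list counts of read pairs for each pair of 40 kb bins, whole and symmetric on chromosome 4 from 48120001 to its end. Positions 9400001 to 48120000 hold scaled values and were left out. The deposited TAD lists hold edges only.

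Here (Python 3.11.15, numpy 2.4.6, scipy 1.17.1, pandas 2.3.3, biopython 1.88), bins with under 10% of the median contacts were dropped. Expected contacts were distance decay times a factor per bin from iterative correction, per map. Levels have exact Poisson intervals, ratios exact conditional binomial intervals, and insulation values Poisson counting SDs. A change was called when its 95% interval left out 0 on the log2 scale. The scripts were tested on simulated maps. All 7 members are named, with 7 neighbouring genes. Members, lists and tests were chosen with earlier results of these data known. Contacts inside a bin were not used. Alternatives were the expectation, its span, neighbouring bins, the bin filter, the cluster's extent and the flank length.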

Additional observations from a re-analysis of the deposited data

How the results depend on the processing

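No paired analysis was possible because each condition's contacts were deposited as 1 map made from all its libraries together, and no replicate could be left out for the same reason. Of 42 alternative values for the 10 results on the whole cluster, 33 counted as the same and 0 reversed. For contacts and mean insulation this meant the same direction and call, within the interval of the reported value. For counts it meant a total within 1.5 times, whatever the directions, and for TAD edges a distance within 40 kb. The extended cluster keeps its upstream edge and bin bounds lie within 40 kb of the gene ends, so those distances could not have come out otherwise. The contacts with the downstream flank changed by 0.17 with distance alone as the expectation and by 0.81 with the cluster extended to UGT2A1 and UGT2A2. With that extension the distance from the cluster's downstream edge to the nearest TAD edge was 19.0 kb in control siRNA and 821 kb in CTCF siRNA. The change within the cluster was -0.10 over member bins alone, with an interval that includes 0. The mean insulation change was -0.15 without contacts between neighbouring bins and -0.18 with flanks of 800 kb, both with intervals below 0, and with those flanks 22 bins changed, 16 of them downward, while with flanks of 200 kb 4 fell and 3 rose. With bins of at least 50% of the median contacts, 1 of 10 gene pairs changed, a rise. The fall of UGT2B15 with UGT2B11 lost its call, at a change of -1.25 from 2 bin pairs. Single bins, gaps and pairs were read under these settings after seeing the data. The same 4 choices were applied, after seeing the data, to 25 results on single genes and neighbouring blocks. Of 94 such values 86 kept their call and stayed within the interval, and 0 reversed. With distance alone, UGT2B10, whose relative coverage was 0.48 in control siRNA and 0.34 in CTCF siRNA, changed by -0.81 with the rest of the cluster and by -1.39 with the downstream flank. With the upstream flank UGT2B17 then changed by 0.63 and UGT2B7 by -0.35. The cause of these differences was not tested. Single gene pairs had between 1 and 22 contacts in the control siRNA map, which limits what they can show.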
